A study of Mus musculus with 12 samples.

Results

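Brush border digestive enzymes are hydrolases held in the apical membrane of absorptive enterocytes, where they finish the digestion of sugars, phosphate esters and peptides at the surface of the villus. The genes examined were the 9 named hydrolases Sis, Mgam, Lct, Treh, Alpi, Akp3, Anpep, Enpep and Dpp4. They were chosen by name, and all 9 were present among the 6429 genes of both of the authors' deposited comparison tables. What was measured is the occupancy of RNA polymerase II (Pol II), by chromatin immunoprecipitation followed by sequencing, in epithelium of the mouse duodenum.

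The labels list 3 Pol II libraries for each of 3 groups. Wild-type (WT) villus and WT crypt came from adult mice given the oil vehicle without tamoxifen. The third group was villus of adult Hnf4 alpha and gamma double knockout (DKO) mice, which received tamoxifen at 50 mg/kg/day for 2 days and were taken 1 day after the last injection. A filter with 70 um pores held back the villi and passed the crypts. The EDTA step lasted 35 minutes for WT and 25 minutes for mutant tissue, so genotype, tamoxifen and EDTA time cannot be told apart. The series text calls the controls littermates. The driver of the inducible deletion, the deleted part of each gene and the number of animals per library are not given in the sources used here. If libraries of a group were not from separate animals, the p-values measure only the spread between these libraries, which may be technical.

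Sucrase-isomaltase (Sis), maltase-glucoamylase (Mgam), lactase (Lct) and trehalase (Treh) split dietary sugars into monosaccharides. Alpi and Akp3 encode intestinal alkaline phosphatases, and Anpep (aminopeptidase N), Enpep (glutamyl aminopeptidase) and Dpp4 (dipeptidyl peptidase 4) trim peptides. HNF4A and HNF4G are nuclear receptors that act in enterocytes, and CDX2, known to bind the starts of the sucrase-isomaltase and lactase genes, and GATA4 are further factors of this epithelium.

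Sequence at the starts of the genes is shown first, because one of the comparisons is with mice labelled as lacking HNF4. The 9 genes matched by symbol to 1 promoter each in the RefSeq table of mouse build GRCm38.p6, which gives 300 bases per promoter for 32851 promoters. The 120 bases before the start are printed 5′ to 3′ on the strand of the gene, with positions counted back from -1, the base before the start. The following letters were searched on both strands: CAAAGTCCA (known as an HNF4 site), its first part CAAAG, the core letters of a TATA box, written TATAAA, the letters GTTAAT that form part of an HNF1 site, TTTATG for CDX factors and, for GATA factors, AGATAA. Because the short core lies inside the HNF4 letters, the first and second searches overlap.

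Alpi and Treh are shown because they alone of the 9 held the HNF4 letters, and Akp3 because it is the neighbouring copy of Alpi. Capitals mark the HNF4 letters on either strand in Alpi and Treh, the TATA box letters as read from the other strand in Alpi, and CAAAG on either strand in Akp3.
Alpi promoter stretch, chr1:87101607-87101726 (minus strand): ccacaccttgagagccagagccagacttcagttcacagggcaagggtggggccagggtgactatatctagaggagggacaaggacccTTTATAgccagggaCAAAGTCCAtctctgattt
Akp3 promoter stretch, chr1:87124834-87124953 (plus strand): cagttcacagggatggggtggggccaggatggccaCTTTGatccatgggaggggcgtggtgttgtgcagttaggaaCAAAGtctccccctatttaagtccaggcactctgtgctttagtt
Treh promoter stretch, chr9:44673113-44673232 (plus strand): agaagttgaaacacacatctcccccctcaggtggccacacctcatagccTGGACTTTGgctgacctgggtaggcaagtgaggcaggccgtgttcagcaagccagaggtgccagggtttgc

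The HNF4 letters were in 2 of the 9 promoters and in 0.475% of all 32851. In Alpi they ran from -19 to -11 on the strand of the gene, and in Treh from -71 to -63 on the other strand. End-to-end alignment of the 300-base promoters of Alpi and Akp3 paired 269 bases, of which 65.4% were identical. The 9 letters of Akp3 aligned with the HNF4 letters of Alpi began at -44 and differed by C8T and A9C, with the Alpi base first and positions counted from the first of the 9 letters. CAAAG alone was in 7 of the 9 and in 53.9% of all promoters on both strands, and on the strand of the gene alone in the same number and in 32.6% of all.

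Sis and Lct are shown for the CDX letters, and Anpep for its base composition. Capitals mark TTTATG on either strand in Sis and Lct, AGATAA on either strand in Lct, and each CG pair in Anpep.
Sis promoter stretch, chr3:72967864-72967983 (minus strand): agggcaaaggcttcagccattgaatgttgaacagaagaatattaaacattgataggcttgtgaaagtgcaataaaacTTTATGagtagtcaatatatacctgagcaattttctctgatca
Lct promoter stretch, chr1:128328319-128328438 (minus strand): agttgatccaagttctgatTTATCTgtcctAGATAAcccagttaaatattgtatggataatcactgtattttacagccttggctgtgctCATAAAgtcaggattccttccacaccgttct
Anpep promoter stretch, chr7:79848211-79848330 (minus strand): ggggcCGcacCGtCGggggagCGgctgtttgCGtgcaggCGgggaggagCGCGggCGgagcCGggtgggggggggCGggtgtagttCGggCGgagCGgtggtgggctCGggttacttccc

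The CDX letters stood at -43 to -38 in Sis and, on the other strand, at -31 to -26 in Lct, and 11.9% of all promoters held them. Lct, Mgam and Dpp4 held the GATA letters, as did 11.2% of all promoters, and Lct held them on both strands. TATAAA on either strand was in Sis, Mgam, Alpi, Enpep and Dpp4, and in 13.6% of all promoters. In Mgam it lay from -30 to -25, and in Alpi, on the other strand, from -33 to -28. GTTAAT was in Sis and in 7.1% of all promoters.

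Base composition separated Anpep from the other 8 genes. Its 300 bases were 72.3% G or C with 28 CG pairs, more than in 85.8% of all promoters. The other 8 had between 1 and 7 CG pairs, against a median of 7 over all promoters, and from 34% (Sis) to 57% (Akp3) G or C. These matches describe the letters in 1 window per gene, and no binding of a factor was measured here.

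The deposited count tables were examined for the windows they used, in the mm9 coordinates of the files. The 9 genes had 13 transcripts. Each transcript had a promoter window of 402 bp, reaching from 100 bp before the start into the gene, and a gene body window. No window of any other gene overlapped a window of the 9.

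The gene body windows were not built alike on both strands. On the plus strand (Akp3, Mgam and Treh) the window began 350 bp after the start and ended 500 bp before the transcript end, and was 850 bp shorter than the transcript. On the minus strand (Sis, Lct, Alpi, Anpep, Enpep and Dpp4) it reached from 350 bp before the start to 500 bp past the transcript end, and was 850 bp longer. The gene body window therefore contained the whole promoter window in these 6 genes. The same held for all 21190 minus-strand transcripts with both windows, and for 0 of 19858 plus-strand transcripts. Among genes with 1 transcript, the body window was exactly 850 bp longer than the RefSeq gene for 61.9% of 7731 minus-strand genes and exactly 850 bp shorter for 56.4% of 6506 plus-strand genes. The opposite case occurred in 0 genes on either strand.

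The shortest members show how much this matters for a window. The Akp3 transcript, on chromosome 1 from 89021529 to 89025303, spanned 3775 bp and had a body window of 2925 bp. Alpi, on chromosome 1 from 88994577 to 88998181, spanned 3605 bp and had a body window of 4455 bp. The longest member, Mgam, on chromosome 6 from 40578830 to 40719122, spanned 140293 bp and had a body window of 139443 bp. Which window fed the authors' deposited comparison tables is not stated in them, and the part of this difference in the results was not tested.

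**Figure D1:**
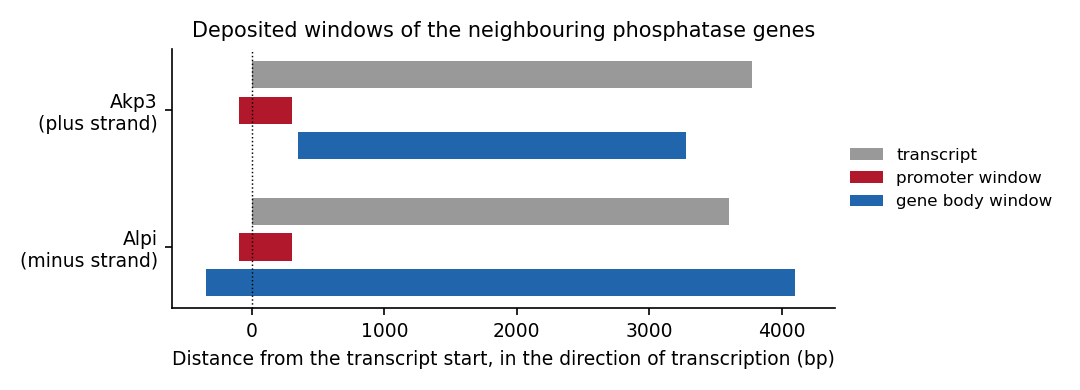
Transcript, promoter window and gene body window of Akp3 and Alpi, plotted by distance in bp from the transcript start in the direction of transcription. The Akp3 body window starts 350 bp after the start, while the Alpi body window starts 350 bp before it and covers the promoter window.

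The remaining genes lay, in the same coordinates, at these places. Sis spanned chromosome 3 from 72692479 to 72771785, and Enpep chromosome 3 from 128972095 to 129035667. Lct spanned chromosome 1 from 130181333 to 130224895, Treh chromosome 9 from 44481316 to 44494388, and Anpep chromosome 7 from 86966689 to 86993096. The longer transcript of Dpp4 spanned chromosome 2 from 62168130 to 62250288, with a second transcript of 79009 bp from the same start. The columns of counts in these tables carry no names, so values per library were not analysed here.

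Values come from the authors' deposited tables, which give for each gene a mean Pol II signal over libraries (counts divided by size factors), log2 fold changes and their standard errors (SE). The group means below were rebuilt from these for 3 groups of equal size, so they carry no replicate spread of their own. The error of each comparison is the SE of the authors' DESeq2 fit, printed after ±. A gene was called at a DESeq2 adjusted p under 0.05. Signal was not read as a difference in Pol II level between genes, because the length counted is not stated. Mean signal served only to place genes by their counts, which can also depend on that length. The mean signal ran from 13.1 to 6634 over all genes, and all 9 hydrolases were at or above the median of 144.

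The targeted genes do not check the genotype labels. Both had more Pol II in the villi labelled DKO, by log2 values (negative where WT is lower) of -0.54 ± 0.14 at Hnf4a and -1.45 ± 0.22 at Hnf4g (DESeq2 adjusted p 0.000484 and 7.81e-10, authors' deposited table). The group is therefore called labelled-DKO villus, and every direction between genotypes rests on the table's name. Cell type markers came from these tables as well. The enterocyte list had 9 of 10 genes present, and all 9 were called higher in WT villus than in crypt and than in labelled-DKO villus (list minimum 1.09 and 0.49 in the authors' deposited tables). Axin2, Pcna and Myc, the 3 of 10 stem and dividing cell markers present, were all called higher in crypt. Pcna and Myc were also higher, past the same threshold, in labelled-DKO villus than in its WT counterpart, while Lgr5, Olfm4 and Mki67 were not in the tables. Goblet markers differed too: Muc2, Tff3, Fcgbp and Zg16 were called higher in WT villus than crypt, and Agr2 and Spink4 higher in crypt and, between genotypes, higher in labelled-DKO villus. The immune list had 1 of 7 genes present, Cd74, called higher in WT villus in both of the authors' deposited tables at 0.72 ± 0.24 and 1.33 ± 0.24, and the enteroendocrine list 1 of 4, Chga, not called. Paneth, tuft, mesenchyme and pancreas markers were not among the genes. In bulk tissue, fewer cells of a type and less Pol II per cell cannot be told apart, and the part of cell makeup in the results was not tested.

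All 9 hydrolase genes carried more Pol II in WT villus than in WT crypt, and all 9 had more in WT villus than in labelled-DKO villus. Each passed the threshold in both of the authors' deposited tables. Over all 6429 genes, 18.6% were called higher in WT villus and 18.8% higher in crypt in the first comparison, and 22.4% higher in WT villus and 29.5% higher in labelled-DKO villus in the second. The 9 had a median log2 fold change of 1.39 over crypt, beside -0.04 over all genes. Between genotypes it was 1.66, beside -0.08 over all genes. Crypt signal was between 20.6% and 63.3% of that in WT villus, and labelled-DKO signal between 16% and 55.7%.

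**Figure D2:**
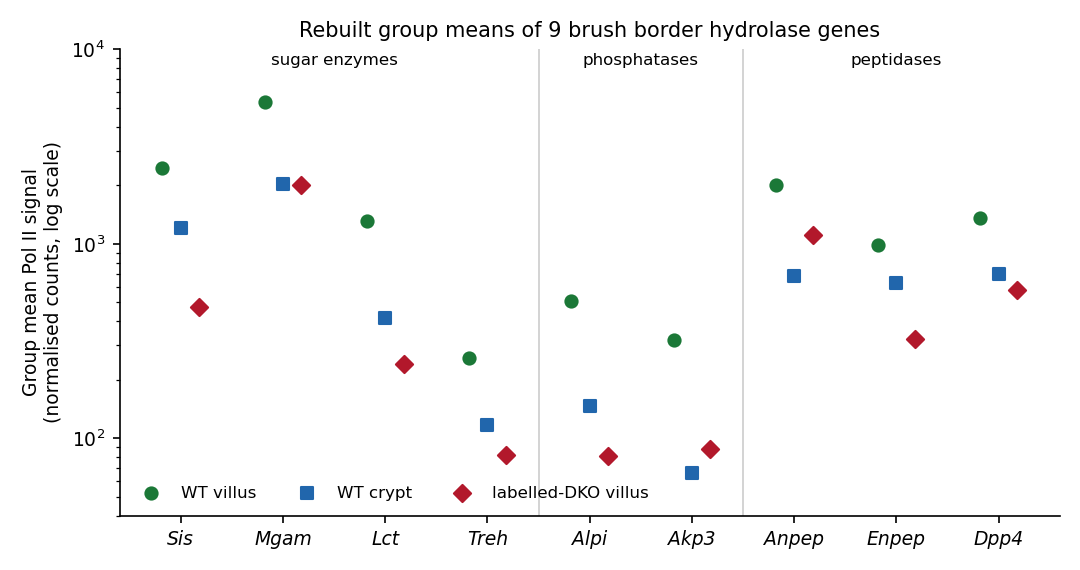
Rebuilt group mean Pol II signal (normalised counts, log scale) of the 9 genes in WT villus, WT crypt and labelled-DKO villus, ordered by the substrate of the enzyme. WT villus is the highest group at all 9, and labelled-DKO villus lies below crypt at 7 and above it at Akp3 and Anpep.

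Sis, the sucrase-isomaltase gene, had a rebuilt mean signal of 2457 in WT villus, 1201 in crypt and 473 in labelled-DKO villus. Villus was the highest group and labelled-DKO villus the lowest. Its change of WT villus over crypt was 1.03 ± 0.38 in the authors' deposited table, a 2.05-fold difference with a 95% interval of 1.21 to 3.45 and an adjusted p of 0.0228. Over labelled-DKO villus it was 2.38 ± 0.38 (5.2-fold, 3.08 to 8.76, adjusted p 5.58e-09). Sis was thus called with little margin along the crypt-villus axis and with a wide one between genotypes.

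Mgam, the paralogous maltase-glucoamylase gene, was called by similar margins in both comparisons. The 95% intervals of Mgam and Sis overlapped in both, so a difference between these paralogs was not resolved. Mgam signal was 5353 in WT villus, 2036 in crypt and 1995 in labelled-DKO villus, so that crypt and labelled-DKO villus stood at nearly the same level. The authors' deposited tables gave 1.39 ± 0.25 over crypt (2.63-fold, adjusted p 3.22e-07) and 1.42 ± 0.25 over labelled-DKO villus (2.68-fold, adjusted p 8.52e-08).

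Lactase, the milk sugar enzyme, had 1308 in WT villus, 414 in crypt and 242 in labelled-DKO villus. In the authors' deposited tables Lct had 1.66 ± 0.29 over crypt, a 3.16-fold difference, and 2.44 ± 0.29 over labelled-DKO villus, a 5.41-fold difference (adjusted p 1.77e-07 and 1.11e-15). Treh, which carries the HNF4 letters shown above, had 259, 117 and 81.7 in the same order. Its changes in the authors' deposited tables were 1.15 ± 0.14 and 1.66 ± 0.14, with adjusted p-values of 3.25e-14 and 1.42e-29. Treh had the smallest SE of the 9, so its changes, although moderate in size, were the most firmly called sugar enzyme changes.

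The phosphatase genes Alpi and Akp3 lie 22898 bp apart by their windows and point away from each other. Alpi had a rebuilt signal of 506 in WT villus, 147 in crypt and 80.9 in labelled-DKO villus. In the authors' deposited tables its change was 1.78 ± 0.46 over crypt (3.44-fold, adjusted p 0.000549) and 2.65 ± 0.46 over labelled-DKO villus (6.26-fold, adjusted p 5.7e-08). The latter was the largest difference between genotypes among the 9, and 33 of all genes had a larger one.

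Akp3, the duodenal form, had 321 in WT villus, 66 in crypt and 88.1 in labelled-DKO villus. Here crypt and not labelled-DKO villus was the lowest group. The authors' deposited tables gave 2.28 ± 0.50 over crypt (4.86-fold, adjusted p 4.08e-05) and 1.86 ± 0.50 over labelled-DKO villus (3.64-fold, adjusted p 0.000601). One gene of the 6429 had a larger change over crypt than Akp3. The intervals of the pair overlapped in both comparisons, from 0.89 to 2.68 for Alpi and 1.30 to 3.26 for Akp3 over crypt, and from 1.75 to 3.54 and 0.89 to 2.84 over labelled-DKO villus. The order of crypt and labelled-DKO villus, reversed between the pair, is read from the difference of these groups, formed below. Its intervals, labelled-DKO villus over crypt, were -2.13 to 0.40 for Alpi and -0.96 to 1.80 for Akp3. These overlapped and neither gene was called there, so the reversed order was not resolved beyond error. Read pairs were counted at a mapping quality of at least 30 per the file headers. Likeness of the pair over the counted windows was not measured, so any split of reads between these related genes is uncertain.

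Among the peptidase genes, Anpep had 1999 in WT villus, 683 in crypt and 1115 in labelled-DKO villus. Labelled-DKO villus lay between WT villus and crypt. Its change over crypt was 1.55 ± 0.30 (2.93-fold, adjusted p 3.54e-06) and over labelled-DKO villus 0.84 ± 0.30 (1.79-fold, 1.19 to 2.71, adjusted p 0.0126) in the authors' deposited tables. The second was the smallest difference between genotypes of the 9.

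Enpep showed the opposite order. It had 990 in WT villus, 627 in crypt and 325 in labelled-DKO villus, with 0.66 ± 0.16 over crypt (1.58-fold, adjusted p 0.000182) and 1.61 ± 0.16 over labelled-DKO villus (3.05-fold, adjusted p 6.5e-23) in the authors' deposited tables. Enpep thus had the smallest change of the 9 along the crypt-villus axis. Dpp4 had 1357, 699 and 578, with 0.96 ± 0.24 (1.94-fold) and 1.23 ± 0.24 (2.35-fold) in the authors' deposited tables (adjusted p 0.000361 and 1.52e-06). In Dpp4 crypt and labelled-DKO villus again lay close together.

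The spread among the genes was then read from their 95% intervals, without a test, since the genes share libraries. Over crypt, 2 of 36 pairs of genes had intervals that did not overlap, Enpep with Lct and Enpep with Akp3. Over labelled-DKO villus there were 5, which set Anpep below Sis, Lct and Alpi and set Dpp4 below Lct and Alpi. Neighbours in either order did not differ beyond their intervals. The share of pairs without overlap was not counted among other genes. The counts of 2 and 5 therefore do not show whether these hydrolases spread more or less than other genes. Wide intervals, such as those of Akp3, Alpi and Sis, also make overlap more likely.

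Labelled-DKO villus was next set against WT crypt, to see whether loss of signal reached, stopped short of or passed the crypt level. The log2 difference was formed from the 2 deposited changes, with an SE at the largest value it can have for independent libraries, and adjusted by Benjamini-Hochberg over all genes with a normal test. At 7 genes the signal was lower in labelled-DKO villus than in crypt, and at Akp3 and Anpep it was higher. Of the 9, 1 was called, Enpep, at -0.95 ± 0.22 with an adjusted p of 0.000456. The background is 7.19% of genes called higher in crypt and 6.41% called higher in labelled-DKO villus.

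Sis had the largest difference, -1.34 ± 0.54, which missed the threshold with an adjusted p of 0.0802. Treh had -0.52 ± 0.20 with an adjusted p of 0.0683, Lct -0.77 ± 0.41 with 0.230, and Alpi -0.87 ± 0.65 with 0.455. Anpep had 0.71 ± 0.43 with an adjusted p of 0.316, and Akp3 0.42 ± 0.70 with 0.808. Mgam had -0.03 ± 0.35, with a 95% interval of -0.72 to 0.66, and Dpp4 -0.27 ± 0.34, with an interval of -0.93 to 0.39. The intervals of Anpep (-0.13 to 1.54) and Sis (-2.41 to -0.28) did not overlap, nor did those of Anpep and Enpep (-1.39 to -0.51). By this normal test none of the 9 was called higher in labelled-DKO villus than in crypt. At an unadjusted p under 0.05, 0 were higher, beside 12.8% of all genes, and 3 were lower, beside 11.9%. An SE was also rebuilt by a model, because variances of the groups are not given. It took a part shared by the groups of a gene, plus a part inversely proportional to each group's mean signal. The constants of the latter were fitted over all genes, and these assumptions were not tested. With this rebuilt SE in place of the largest possible one, 4 were called lower than crypt, beside 14.3% of all genes in that direction. They were Sis (adjusted p 0.00287), Treh (0.00318), Lct (0.0306) and Enpep. How many hydrolases fell below the crypt level thus depended on the SE used.

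**Figure D3:**
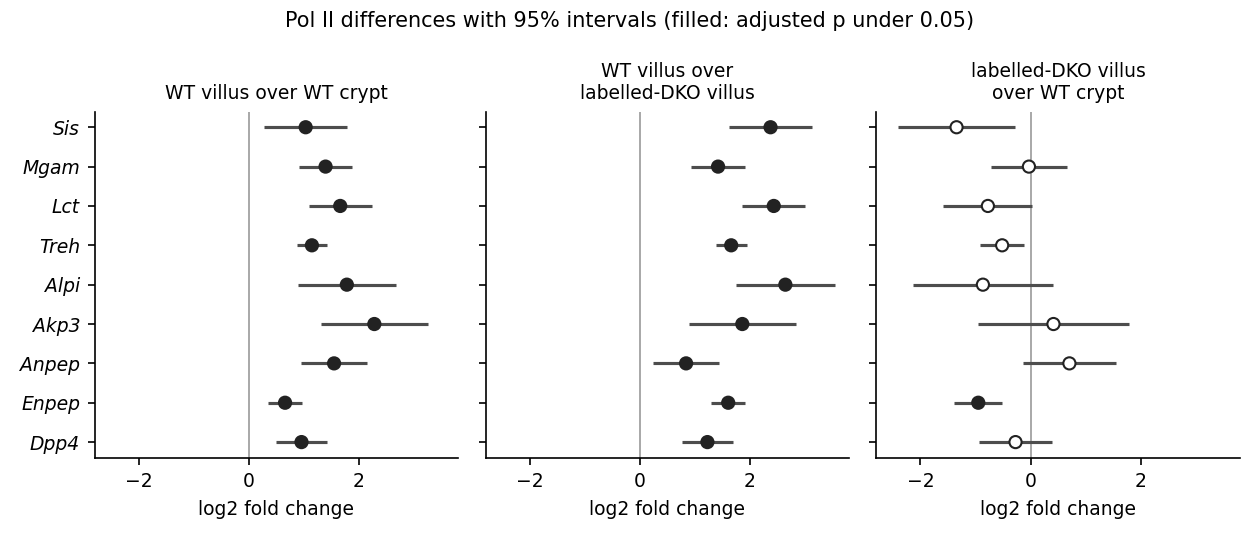
Log2 fold changes of the 9 genes (points) with 95% intervals (lines) for WT villus over WT crypt, WT villus over labelled-DKO villus and labelled-DKO villus over WT crypt; filled points have an adjusted p under 0.05. All 9 are right of 0 in the first and second comparisons, and in the third Enpep alone is called, with Anpep and Akp3 right of 0.

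The genes differed strongly in their SE, which reflects the spread between libraries as well as counting noise. For each gene, the SE of villus over crypt in the authors' deposited table was set beside the 200 genes nearest in mean signal. Sis (SE 0.38), Alpi (0.46) and Akp3 (0.50) each had a larger SE than all 200, at 3.59, 4.06 and 3.99 times the median of those genes. For Lct, Anpep and Dpp4 4, 5 and 17 of the 200 genes had a larger SE, and for Mgam 21. Enpep and Treh were closer to the rest, with 41 and 60 of the 200 above them. So 6 of the 9 had fewer than 20 such genes above them, beside 2 of 17 genes listed as other brush border hydrolases, 3 of 11 uptake genes and 2 of 9 enterocyte markers. The cut of 20 in 200 is itself about the share to be met by genes at large, which was not counted here. Alpi is also an enterocyte marker and is counted among those 2. Which library carries this spread was not analysed here, since the columns of counts per library carry no names.

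**Figure D4:**
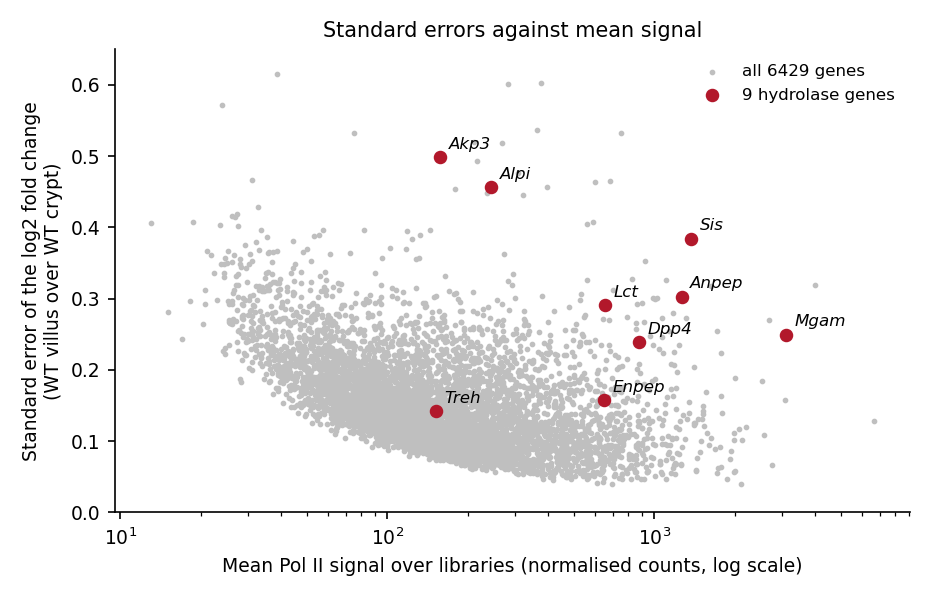
Standard error of the log2 fold change of WT villus over WT crypt against mean Pol II signal (normalised counts, log scale) for all genes (grey) and the 9 hydrolase genes (red). Alpi, Akp3 and Sis lie at 0.46, 0.50 and 0.38, above the 200 genes nearest in mean signal, while Treh lies within the cloud.

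Other genes of surface digestion and uptake were read from lists. Of 22 genes listed by name as other brush border hydrolases 17 were in the tables, and the place of each product in the cell was not checked. Of these, 11 had more signal in WT villus than crypt past the threshold, 1 had less and 5 were not called, with a median of 0.71 in the authors' deposited table. Between genotypes the calls were 15 higher and 1 lower in WT villus, with a median of 1.09. Over all genes, 18.6% were called higher in WT villus and 18.8% lower in the first comparison. In the second the shares were 22.4% and 29.5%. The largest change over crypt was that of Enpp7, an alkaline sphingomyelinase, at 2.03 ± 0.15, followed in the authors' deposited table by Ace, angiotensin converting enzyme, at 1.81 ± 0.18 and Enpp3 at 1.44 ± 0.14. Over labelled-DKO villus the authors' deposited table put Enpp7 first at 2.92 ± 0.16, then the gamma-glutamyl transferase gene Ggt1 at 2.61 ± 0.12. The smallest in both was Entpd8, at 0.09 ± 0.26 and -0.01 ± 0.25, not called in the authors' deposited tables. The gene called lower in WT villus in both comparisons was Dpp7, named here after its values were seen. It encodes a dipeptidyl peptidase of intracellular vesicles, and had -0.38 ± 0.13 and -0.41 ± 0.12 in the authors' deposited tables. Naaa, Pbld1 and Ces2e, also named after their values were seen, are not established brush border enzymes either. None of them was called over crypt (0.19 ± 0.12, 0.21 ± 0.19 and 0.13 ± 0.20, authors' deposited table). Each was called higher in WT villus than in labelled-DKO villus (0.42 ± 0.12, 0.89 ± 0.19 and 1.09 ± 0.21, authors' deposited table).

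Like Anpep, whose difference was not called, Ace had more signal in labelled-DKO villus (405) than in crypt (220). The difference at Ace was called at 0.88 ± 0.25 with a Benjamini-Hochberg adjusted p of 0.00655. Of the 17 genes, Ace alone was called in that direction, beside 6.41% of all genes. The other direction, lower in labelled-DKO villus than in crypt, had 7 calls, beside 7.19% of all genes.

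Transporters that take up the products moved in the same directions. Of 12 uptake genes 11 were in the tables. Each of the 11 passed the threshold with more signal in WT villus than crypt (median 1.22), and 10 did so between genotypes (median 1.53, authors' deposited tables). Over all genes, 18.6% and 22.4% were called in these directions. The sugar transporter gene Slc5a1 had 1.76 ± 0.18 and 2.29 ± 0.18, and the neutral amino acid transporter gene Slc6a19 had 1.88 ± 0.19 and 3.68 ± 0.20, the largest of the list in both of the authors' deposited tables. The peptide transporter gene Slc15a1 had 1.83 ± 0.19 over crypt, and the smallest change over crypt was Slc7a7 at 0.60 ± 0.07 in the authors' deposited table. The gene not called between genotypes was Slc34a2, a phosphate transporter, at -0.57 ± 0.44 (authors' deposited table), named after its values were seen.

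Hydrolases of other compartments were mixed. Of 17 cytosolic, lysosomal and endoplasmic reticulum hydrolase genes 14 were in the tables. The authors' deposited tables called 3 higher and 2 lower in WT villus than crypt (median -0.13), beside 18.6% and 18.8% of all genes. Between genotypes they called 4 higher and 5 lower (median -0.17), beside 22.4% and 29.5%. With 14 genes, these counts were near the shares over all genes. The genes with the largest changes in both tables were the cytosolic peptidase genes Cndp2, Lap3 and Pepd, which complete peptide digestion inside the cell. In the authors' deposited tables Cndp2 had 1.29 ± 0.08 and 1.84 ± 0.08, Lap3 1.09 ± 0.10 and 1.51 ± 0.10, and Pepd 0.84 ± 0.08 and 1.60 ± 0.09. The smallest were Ctsz over crypt at 0.00063 ± 0.13 and Rnpep over labelled-DKO villus at 0.04 ± 0.07.

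**Figure D5:**
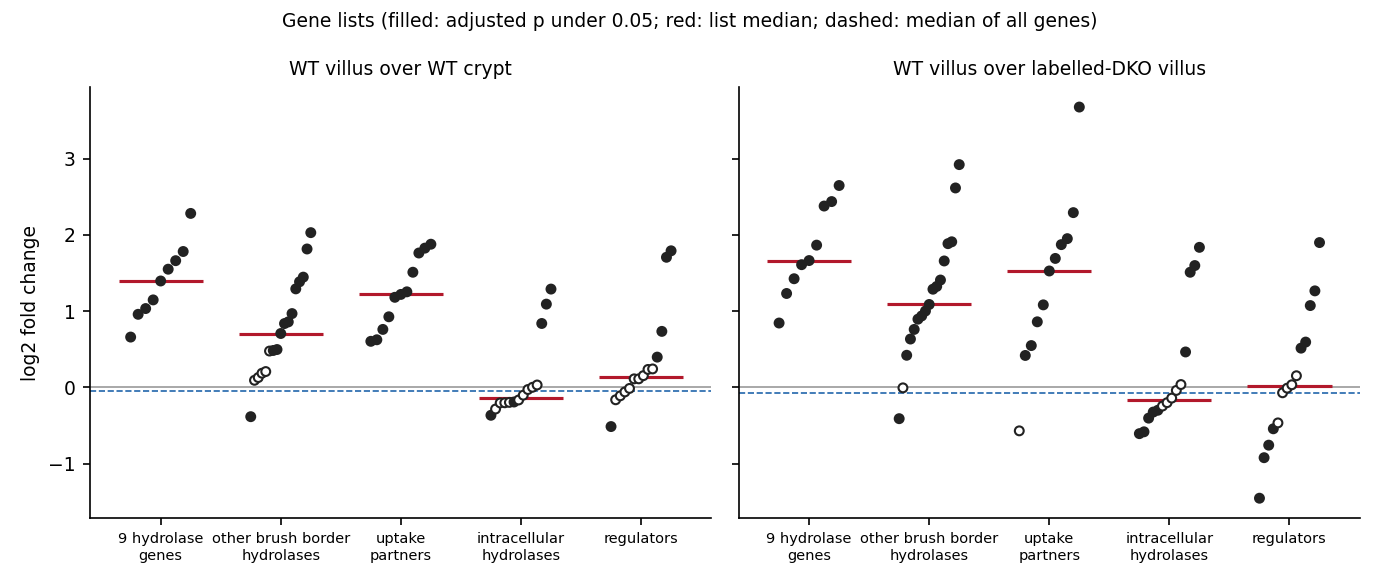
Log2 fold changes of the 9 hydrolase genes and of 4 gene lists in both deposited comparisons; each point is a gene, filled where the adjusted p is under 0.05, with the list median (red) and the median of all genes (dashed). Brush border and uptake lists have medians between 0.71 and 1.66, and the medians of intracellular hydrolases and regulators lie between -0.17 and 0.13.

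Transcription factor genes of the epithelium showed no common direction. Of 15 regulator genes 14 were in the tables. The authors' deposited tables called 4 higher and 1 lower in WT villus than crypt, beside 18.6% and 18.8% of all genes. Between genotypes they called 5 higher and 4 lower in WT villus, beside 22.4% and 29.5% of all genes. The 4 lower include the targeted genes Hnf4a and Hnf4g themselves. Maf had 1.71 ± 0.11 and 1.90 ± 0.11, and Gata5 0.73 ± 0.13 and 1.26 ± 0.13, both called in both of the authors' deposited tables. Klf4 had 1.79 ± 0.23 over crypt, while Klf5 had -0.01 ± 0.20 there and Gata6 -0.01 ± 0.11 over labelled-DKO villus, both not called in the authors' deposited tables.

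Genes next to the hydrolases were looked at by a rule added after the values of the 9 were seen. It took all genes outside the 9 whose windows lay within 100 kb, so Alpi and Akp3 were not counted as neighbours of each other. There were 31, of which 11 were in the tables. The authors' deposited tables called 1 of the 11 higher in WT villus than crypt, Ubxn4, at 0.22 ± 0.06, beside 1.66 ± 0.29 for Lct 5378 bp away. Between genotypes Ubxn4 alone was called higher in WT villus, at 0.15 ± 0.06, and 4 were called higher in labelled-DKO villus, among them Ddx6, Eif4e2 and Pex11a. Over all genes, 18.6% were called higher in WT villus than crypt. The shares between genotypes were 22.4% higher in WT villus and 29.5% higher in labelled-DKO villus. The neighbours ran from -0.28 to 0.28 over crypt and from -0.71 to 0.23 over labelled-DKO villus in the authors' deposited tables. Phldb1, whose windows end 3 bp from those of Treh, had 0.11 ± 0.11 and 0.20 ± 0.11 and was not called.

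The genes most like 3 of the hydrolases were found by distance in the plane of the 2 log2 fold changes, among 3206 genes at or above the median signal. The comparisons share the WT villus libraries, so this is a description over 3 groups. Nearest to Sis were Eps8l3 (distance 0.0876), Vmo1 (0.125) and Cdhr2 (0.156). Nearest to Lct were Fabp2 (0.0264), Slc9a3r1 (0.0784) and Gpt (0.119). Akp3 had no gene as close, with Zfp36 at 0.430, Actb at 0.519 and Slc6a8 at 0.548. The distances take no account of error. In each comparison the SE was 0.50 for Akp3, 0.29 for Lct and 0.45 for Fabp2. Neither the order of the nearest genes nor a profile particular to Akp3 was therefore resolved.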

How the data were processed

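Pol II ChIP-seq reads were processed by the authors. By design 3 libraries per group and 3 inputs were made. Per the submitters' processing notes the tools named are FastQC 0.11.3, Bowtie2 2.2.6, SAMtools 0.1.19, Picard, deepTools 2.4.2, featureCounts and DESeq2 1.36.0, with build mm9. Per the file headers, featureCounts 2.0.3 counted read pairs at a mapping quality of at least 30 in every window they overlapped, with duplicates ignored and no strand option. The 18 columns of counts per library carry no names, match no sample and were not used, so the planned edgeR quasi-likelihood test was not run and depth per library is unknown. The authors deposited 2 tables with a mean signal, log2 fold change, log2 standard error, Wald score, p-value and adjusted p-value. The gene filter, the window counted and any shrinkage are not stated there. A Benjamini-Hochberg adjustment of the deposited p-values over 6429 genes returned the authors' adjusted values to within 3.76e-07.

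Group means, differences from crypt, intervals, motif counts (Biopython 1.88) and alternatives were computed with numpy 2.4.6, pandas 2.3.3 and scipy 1.17.1, and the difference from crypt with the largest SE was tested on simulated data. Transcripts were named through the RefSeq table of GRCm38.p6, which matched 97.7% of them. All 9 members are named in full, and of each other list at most 3 called genes with the largest change and the gene with the smallest. Some genes that this rule would name are not reported here. The members, lists and alternatives were chosen with earlier results of these data known.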

Additional observations from a re-analysis of the deposited data

How the results depend on the processing

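Of the alternatives run on the deposited comparisons, centring on the median of all genes alone can move a log2 value, by a uniform shift; the others change the threshold or the genes adjusted over. Testing against log2 changes of up to 0.5 lowered the count higher in WT villus than crypt from 9 to 5, losing Sis, Alpi, Enpep and Dpp4, beside 3.45% of all genes. Against labelled-DKO villus it left 7, without Akp3 and Anpep, beside 7.53%. An adjusted p under 0.01 left 8 in each comparison, without Sis over crypt and without Anpep over labelled-DKO villus, beside 14.6% and 18.8%. A log2 fold change beyond 1 left 7 over crypt and 8 over labelled-DKO villus, beside 3.52% and 6.53%. For labelled-DKO villus below crypt, the count of 1 became 0 with a log2 fold change beyond 1 (1.66% of all genes), 0 against changes up to 0.5 (0.902%) and 4 with the rebuilt SE (14.3%). Searching the strand of the gene alone lowered the promoters with the HNF4 letters to 1 (0.259% of all promoters), TATAAA to 3 (8.32%), GTTAAT to 0 (3.65%), TTTATG to 1 (5.91%) and AGATAA to 2 (5.86%), and CAAAG was found in 7 (32.6%). Centring on the median of all genes and a mean signal of at least 100 changed no call of the 9. Of 144 recomputed values of single genes, 128 stayed on their side of the threshold, 13 lost it and 3 gained it.

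No paired analysis was possible because no named column holds a library's own values. Leaving out a library, DESeq2 in place of edgeR, another filter on counts and alignment of the proteins were not run. Depth per library is unknown; within the 9, the widest errors over crypt were at Akp3, Alpi and Sis.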
